A study of Mus musculus with 69 samples.

Results

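The direct comparison of metabolic with hormonal stress in wild type (WT) vascular smooth muscle cells (VSMC) rested on 8 of the 69 RNA sequencing libraries of the series. They were chosen by their labels: genotype WT, cell type VSMC, and treatment with either high glucose plus free fatty acids (HG + FFA) or angiotensin II plus a catecholamine (AII + NA). The VSMC were primary cells from the thoracic and abdominal aorta of male C57BL/6 mice, passaged in culture and kept without serum before the exposure, which lasted 24 h in a medium with fatty-acid-free albumin in every arm. HG + FFA stood for 20 mM glucose with fatty acids labelled as 100 µM, which in the methods is the concentration of each of oleate and palmitate. AII + NA stood for 30 nM angiotensin II with 300 nM of a catecholamine that the labels call epinephrine and the methods call norepinephrine. Cells of 4 animals, sets 1 to 4, each received both exposures, which gave 4 pairs. The same 4 sets also had a Control library and an ALL library (all agents combined), so that 16 WT VSMC libraries entered the fit. KO VSMC, which lack the EGF receptor in smooth muscle through a floxed Egfr gene and a Cre driven by the SM22 (Tagln) promoter, gave 8 libraries with these exposures, and WT endothelial cells (EC) from the heart gave 19. The question was which genes separated the metabolic from the humoral stressors when each was measured against the other rather than against Control.

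Fatty acids that enter a cell act as ligands of the PPAR nuclear receptors, which switch on genes for fatty acid transport and mitochondrial beta-oxidation. Angiotensin II and catecholamines bind receptors coupled to G proteins, which raise intracellular calcium and favour actin assembly in smooth muscle. Free actin monomers hold back the coactivators of serum response factor (SRF), so that actin assembly is known to favour transcription of contractile genes whose promoters carry the SRF site, the CArG box.

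The HG + FFA libraries held 25165228 to 36480881 counts (median 33322800) and the AII + NA libraries 27143351 to 32798206 (median 28817488). Within a set the libraries deviated together, with a correlation of 0.68 to 0.86 between the HG + FFA and AII + NA deviations, so each set was compared with itself. The smooth muscle markers were detected, with 336 to 881 FPM (counts scaled to library size, as defined by edgeR's cpm function) for the sum of 7 markers under HG + FFA and 807 to 2014 FPM under AII + NA, of which 3 of 7 (Acta2, Cnn1 and Lmod1) were higher under AII + NA. Most of this sum was Acta2 alone, with a mean of 481 FPM under HG + FFA and 1268 FPM under AII + NA. Myh11, the smooth muscle myosin, did not exceed 12.8 FPM in any WT VSMC library, and Tagln stayed at or under 6.22 FPM, with 66.7% of its exon bases shared with another gene. The 6 adventitial fibroblast markers summed to 556 to 2224 FPM under HG + FFA and 641 to 2154 FPM under AII + NA, and 3 of them (Pi16, Cd34 and Dpt) were higher under AII + NA. Summed pericyte markers ranged over 680 to 1030 and 598 to 724 FPM, leukocyte markers over 46.2 to 200 and 43.2 to 234 FPM, endothelial markers over 1.78 to 57.2 and 1.89 to 48.4 FPM, and Schwann cell markers over 6.59 to 27.7 and 7.98 to 29.6 FPM, with no member of these 4 lists past the threshold. The adipocyte markers stayed at or under 0.18 FPM in sum in each of the 8 libraries. The part of these other cells in the results below was not tested, and in bulk RNA fewer cells of a type cannot be told apart from less RNA per cell.

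In all, 143 of 16905 tested genes (0.846%) were differentially expressed genes (DEG), meaning an adjusted p (FDR) under 0.05 in edgeR and in DESeq2, a log2 fold change (log2FC) of at least 0.64 in size, and a mean of at least 3 FPM in either exposure. Of these, 65 (0.385% of the tested genes) were higher under HG + FFA and 78 (0.461%) higher under AII + NA, and 5 were long non-coding RNAs. At an edgeR FDR under 0.05 alone, 415 genes (2.45%) passed, 208 (1.23%) higher under HG + FFA and 207 (1.22%) higher under AII + NA. At this share a list below with 1 call is close to genes in general, and such a call describes the gene and not the list. Each log2FC below is HG + FFA minus AII + NA, from edgeR, with its standard error (SE) and n = 4 pairs. The direction was the same in all 4 sets for 137 of the 143 DEG. In 45 DEG the libraries of both exposures did not overlap at all, 24 with HG + FFA above (1.33% of all tested genes did so) and 21 with AII + NA above (0.929%). The DEG were picked on these same libraries, so these counts describe them and are no separate support. The p-values rest on the spread left after set and condition were fitted, over all WT VSMC libraries, Control and ALL included. They cover these 4 sets only and do not measure the spread of the 4 paired differences alone. With only HG + FFA and AII + NA in the fit, 84 genes were DEG. When each set was left out in turn, the count of DEG went from 143 to 134, 105, 84 and 63 without sets 1, 2, 3 and 4. All 143 DEG kept their direction with an unadjusted p under 0.05 each time, but these fits reuse the sets that picked the DEG, so this is no separate support. A fit that ignored the set gave 0 DEG (edgeR: 0 genes past the FDR and 711 at an unadjusted p under 0.05; DESeq2: 34 past the FDR).

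**Figure D1:**
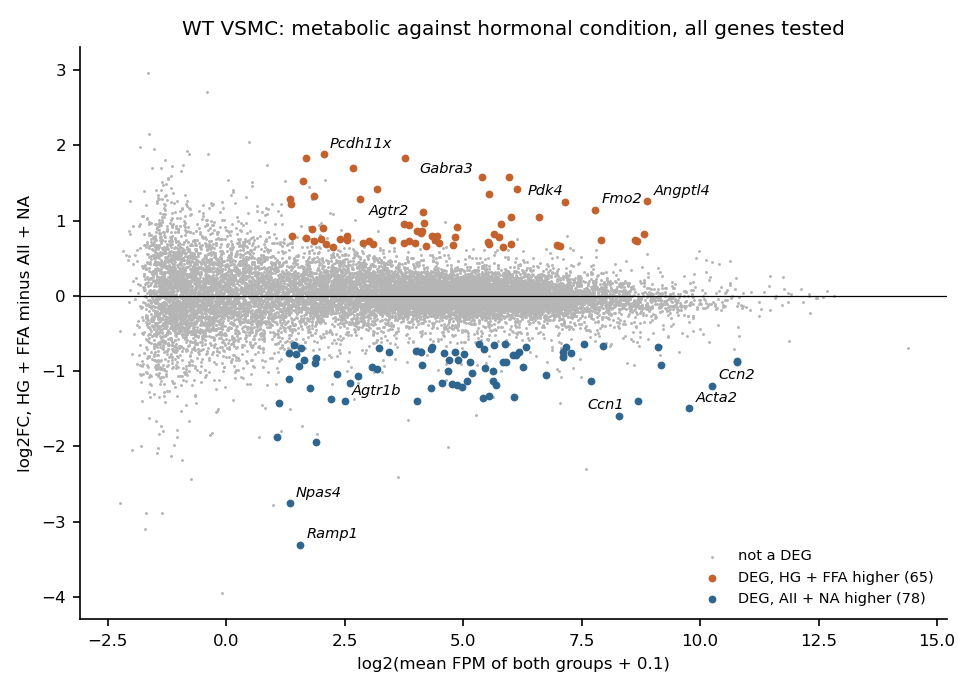
Log2FC (HG + FFA minus AII + NA, y axis) of the 16905 tested genes in WT VSMC against their log2 mean level in FPM (x axis), with the 65 DEG higher under HG + FFA in orange and the 78 DEG higher under AII + NA in blue. The DEG spread from a log2FC of 1.88 down to -3.30, around a median of 0.00 over all genes.

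Genes of fatty acid oxidation and other PPAR targets were called on the HG + FFA side only. Of 31 tested members of this list, 7 passed the FDR, all higher under HG + FFA, 5 of them as DEG, and 22 of 31 had a log2FC above 0 (median 0.19, against 0.00 over all genes). With 1 set left out, 3 to 6 members passed (3 without set 3). Pdk4, the kinase that shuts off pyruvate dehydrogenase, had 103, 90.1, 176 and 47.3 FPM under HG + FFA in sets 1 to 4 and 23.5, 45.8, 47.6 and 30.0 FPM under AII + NA. Only the lowest HG + FFA library, set 4, lay inside the AII + NA range (log2FC 1.42, SE 0.23, FDR = 0.00652, and 0.0818 without set 3).

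Angptl4, a secreted inhibitor of lipoprotein lipase, had 509, 502, 789.6 and 756 FPM under HG + FFA and 88.2, 422, 276 and 437 FPM under AII + NA. The groups did not overlap, but the distance was widest in set 1 and narrowest in set 2 (log2FC 1.26, SE 0.29, FDR = 0.0354, and 0.0544, 0.202 and 0.0743 without sets 1, 3 and 4). Ech1 and Acaa2, enzymes of mitochondrial beta-oxidation, separated the groups with smaller changes, at log2FC 0.74 (SE 0.13, FDR = 0.00709) and 0.68 (SE 0.11, FDR = 0.00685); they were named after their values were seen, as the other DEG of the list. Cpt1a, which makes the acylcarnitine that enters mitochondria, passed the FDR at a log2FC of 0.61 (FDR = 0.029), below the size set for a DEG. Cd36, the fatty acid translocase, was barely expressed, with 6.83, 3.35, 0.0269 and 0.853 FPM under HG + FFA and 0.881, 1.24, 0 and 0.611 FPM under AII + NA. Its log2FC of 1.74 (SE 0.39) passed in edgeR (FDR = 0.0301) and not in DESeq2 (FDR = 0.105), and without set 1 the edgeR FDR was 0.207. The receptors themselves gave no call, with log2FC of -0.06 for Ppara, -0.07 for Ppard and 0.54 for Pparg (FDR = 0.058 for Pparg).

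**Figure D2:**
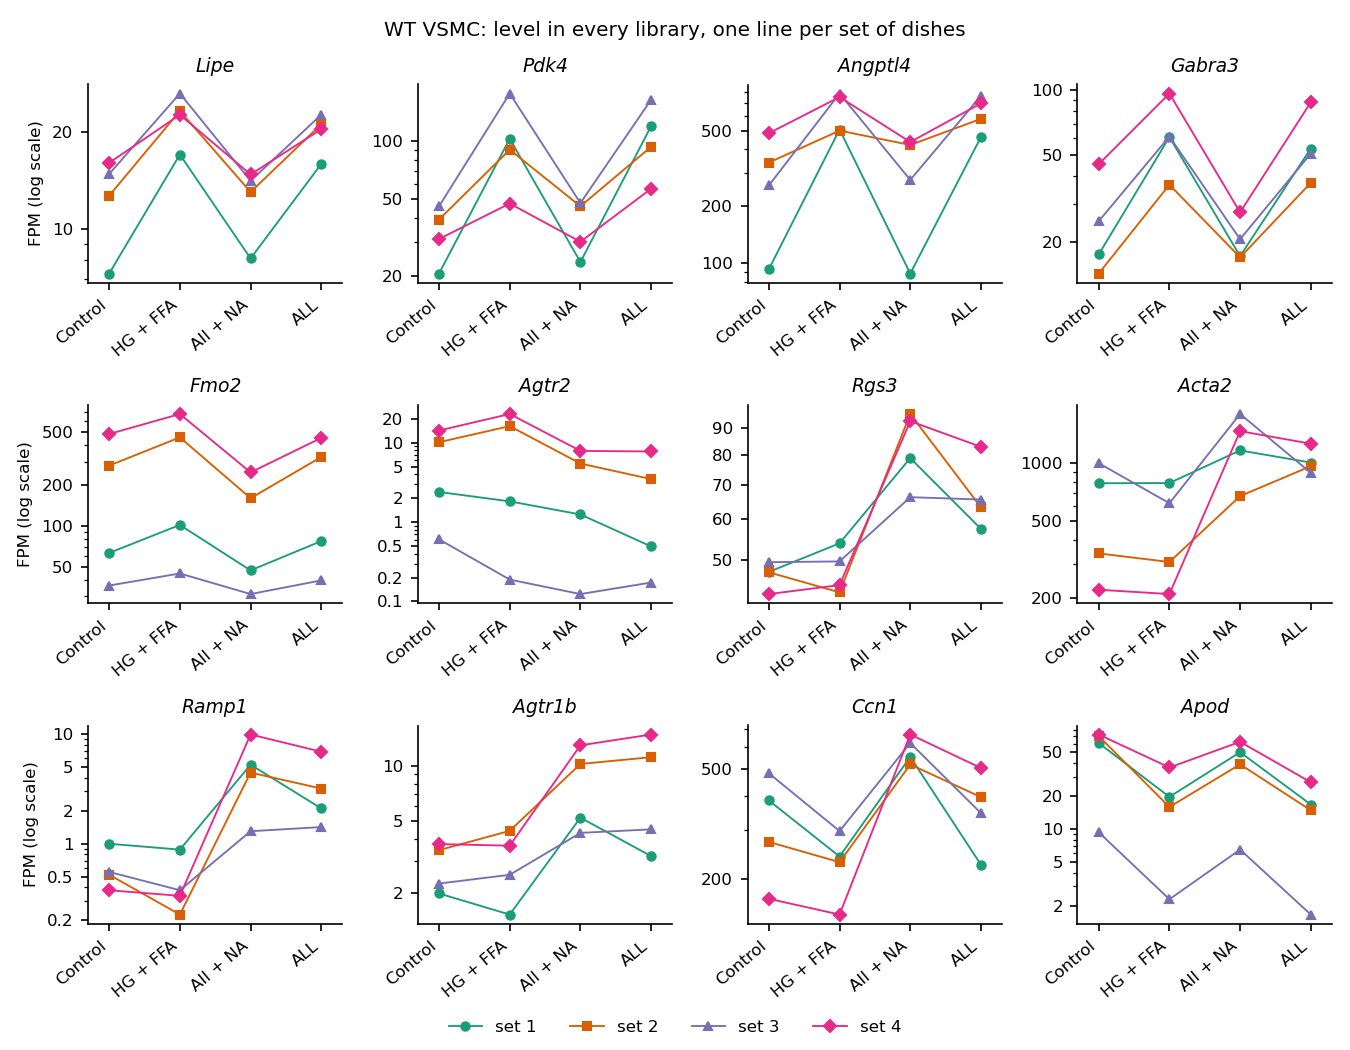
Level in FPM (log axis) of 12 genes in each WT VSMC library by exposure (Control to ALL), with 1 line per set joining libraries of the same animal. Lipe, Pdk4 and Gabra3 are higher under HG + FFA than under AII + NA in all 4 sets, Rgs3, Acta2 and Ccn1 lower in all 4, and Apod drops below Control under HG + FFA.

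Among other genes of lipid handling, the direction depended on the list. Lipe, the hormone-sensitive lipase, had 17.1, 23.3, 26.4 and 22.7 FPM under HG + FFA and 8.11, 13, 14.1 and 14.8 FPM under AII + NA, without overlap (log2FC 0.86, SE 0.11, FDR = 0.00104). Plin4, a coat protein of lipid droplets, was also a DEG at log2FC 0.72 (SE 0.14, FDR = 0.0164, and 0.0697 and 0.0624 without sets 2 and 3). Mgll, which cleaves monoacylglycerol, went the other way at -0.45 (FDR = 0.0454, and up to 0.291, without set 3). These were the 3 of 16 members of the lipid droplet list past the FDR (median 0.02). Stbd1, which binds glycogen, had 88.8, 62.6, 53.9 and 60.4 FPM against 13.6, 30.1, 32.0 and 31.1 FPM. All HG + FFA libraries lay above all AII + NA libraries, with set 1 widest apart (log2FC 1.36, SE 0.28, FDR = 0.0203, and 0.0556, 0.0641 and 0.0537 without sets 2, 3 and 4).

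Targets of the liver X receptors (LXR), which sense oxysterols and drive cholesterol efflux, had log2FC below 0 in 8 of 10 members, 3 of them past the FDR and so higher under AII + NA (median -0.34), and 2 without any single set. Mylip, the ubiquitin ligase that removes the LDL receptor, had 32.1, 52.9, 20.3 and 71.3 FPM under HG + FFA and 72.9, 71.7, 54.8 and 105 FPM under AII + NA (log2FC -0.88, SE 0.14, FDR = 0.00413). Apod, a lipocalin that carries lipids, had 19.6, 15.9, 2.29 and 36.4 FPM against 50.2, 38.9, 6.49 and 62.4 FPM (log2FC -1.19, SE 0.15, FDR = 0.00119). Both were lower in each set and kept their FDR under 0.05 whichever set was left out. Abcg1, a cholesterol exporter, was low (0.382 to 0.791 FPM against 0.866 to 1.74 FPM) and its log2FC of -1.39 (FDR = 0.0403) failed without any single set (0.087 to 0.119).

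Cholesterol synthesis and uptake gave no call among 25 members, but 13 passed without the count filter, all higher under HG + FFA and Srebf2 and Insig1 among them. Calls rose over all genes in that fit, where 1261 genes passed the edgeR FDR against 415 with the filter. In that list 22 members had a log2FC above 0 with a median of 0.35, and 10 had an unadjusted p under 0.05 (9.71% of all genes did so in that direction). Srebf2, the transcription factor of this pathway, gave 0.29 (FDR = 0.151) and Insig1, which holds it back, 0.38 (FDR = 0.0842). Without set 3 the count above 0 was 16 and the median 0.09, and within sets 1 to 4 the median was 0.49, -0.19, 0.85 and -0.01. Of 15 genes of fatty acid synthesis and desaturation (median 0.14), Fads1, the delta-5 desaturase, was higher under HG + FFA (log2FC 0.52, FDR = 0.026, and up to 0.122, without set 3) and Srebf1, the transcription factor of lipogenesis, lower (-0.32, FDR = 0.0158, and up to 0.125, without set 4). In glucose uptake and glycolysis, 1 of 24 members passed (median -0.03): Slc2a4, the insulin-regulated transporter, at 0.235, 0.452, 0.242 and 0.305 FPM under HG + FFA against 1.36, 0.533, 1.14 and 1.44 FPM (log2FC -1.82, SE 0.38, FDR = 0.0214, and 0.0772, 0.141 and 0.14 without sets 1, 3 and 4). Set 2 nearly lacked the difference.

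**Figure D3:**
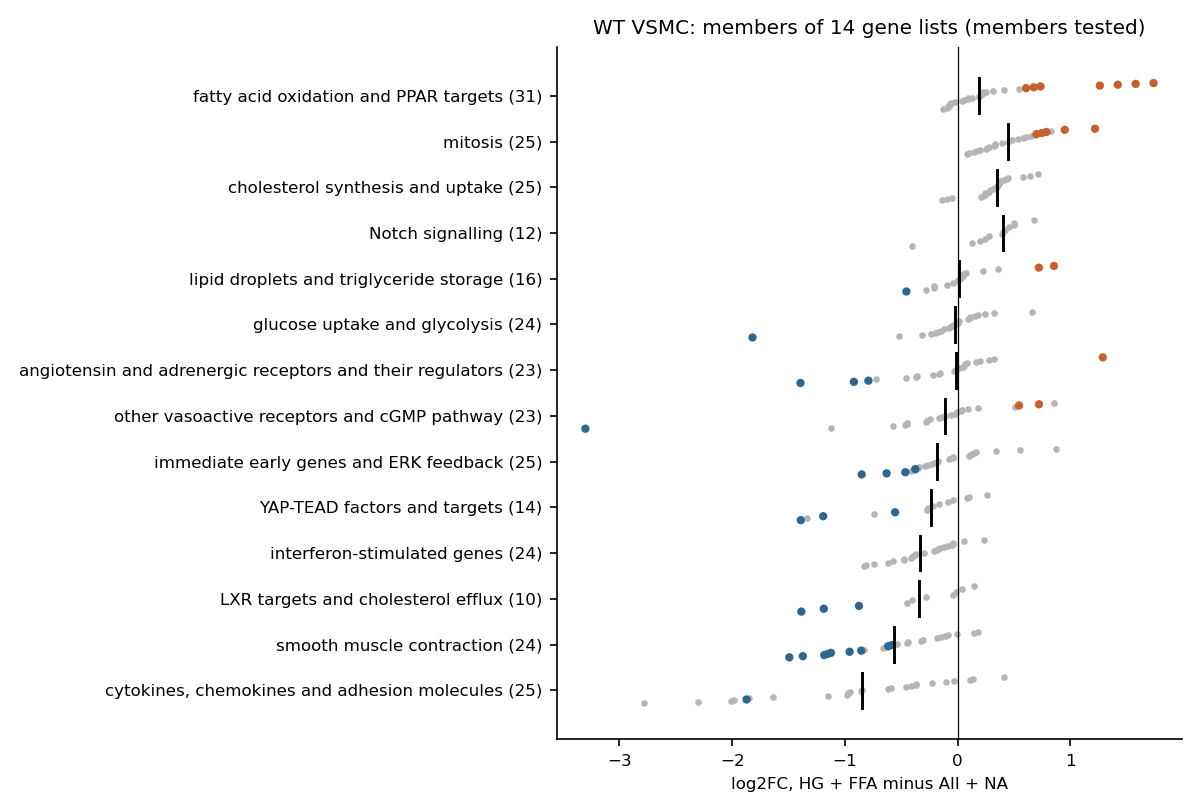
Log2FC (HG + FFA minus AII + NA, x axis) of each tested member of 14 gene lists in WT VSMC, coloured where the edgeR FDR was under 0.05, with a black tick at the median. Fatty acid oxidation lies to the right (median 0.19, 7 members coloured) and contraction to the left (median -0.56, 9 coloured), while all 25 mitosis members lie right of 0 with 5 coloured.

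The 3 angiotensin receptors were called, in opposite directions, and no adrenergic receptor was. Agtr1b, a mouse type 1 angiotensin receptor, had 1.53, 4.41, 2.53 and 3.65 FPM under HG + FFA and 5.21, 10.3, 4.30 and 13 FPM under AII + NA (log2FC -1.39, SE 0.20, FDR = 0.00261). Agtr1a, the other type 1 receptor, had 7.83, 13.9, 6.35 and 17.8 FPM against 16.8, 21.0, 9.25 and 46.8 FPM (log2FC -0.92, SE 0.18, FDR = 0.0158, and 0.0531 and 0.0846 without sets 3 and 4). Both were higher under AII + NA in each set, with overlapping ranges. Agtr2, the type 2 receptor that is known to oppose type 1 signalling, went the other way, with 1.82, 16.2, 0.188 and 23.1 FPM under HG + FFA and 1.25, 5.47, 0.124 and 7.90 FPM under AII + NA. Sets 2 and 4 lay far above sets 1 and 3 under either exposure, and its log2FC of 1.29 (SE 0.25, FDR = 0.0158) did not pass without set 2 (FDR = 0.0947) or set 4 (FDR = 0.167).

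Of the adrenergic receptors described here, none passed. Adra1d, the alpha-1D receptor, had 35.5, 24.5, 27.5 and 15.6 FPM under HG + FFA and 43.4, 20.3, 43 and 26.4 FPM under AII + NA, higher in 3 of 4 sets under AII + NA (log2FC -0.37, SE 0.19, FDR = 0.329, and 0.013 without the count filter). Adra1b (0.06, FDR = 0.876), Adra2a (-0.03, FDR = 0.988), Adrb1 (-0.46, FDR = 0.567) and Adrb3 (0.16, FDR = 0.664) gave smaller or less certain values, and Adra1a and Adra2b were too low to test. Rgs3, which accelerates GTP hydrolysis on G protein alpha subunits, had 54.0, 43.4, 49.8 and 44.8 FPM against 78.9, 96.0, 66.3 and 93.0 FPM, without overlap (log2FC -0.79, SE 0.12, FDR = 0.00413). Over the list of angiotensin and adrenergic receptors and their regulators, 1 of 23 members was higher under HG + FFA and 3 under AII + NA (median -0.01), and with 1 set left out 0 to 1 and 2 to 3.

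In the list of other vasoactive receptors, 3 of 23 members passed (median -0.11). Ramp1 (chr1:91107540-91152918, GRCm39), the partner protein that turns the calcitonin receptor-like receptor into a receptor for the vasodilator CGRP, had 0.883, 0.226, 0.377 and 0.335 FPM under HG + FFA and 5.25, 4.44, 1.30 and 9.88 FPM under AII + NA. Every AII + NA library was above every HG + FFA library, and its log2FC of -3.30 (SE 0.47, FDR = 0.00261) was the largest of all DEG. Gucy1a1, a subunit of the nitric oxide receptor guanylate cyclase, was higher under HG + FFA (0.72, SE 0.14, FDR = 0.0157, and 0.0641, 0.0947 and 0.0561 without sets 1, 2 and 4), and so was Ednra, the endothelin A receptor (0.55, FDR = 0.0129, and 0.0644 and 0.0748 without sets 2 and 4). Avpr1a, the vasopressin V1a receptor, had 44.3, 15.7, 40.4 and 13.7 FPM against 80.3, 50.8, 55.0 and 72.7 FPM; it was a DEG (log2FC -1.32, SE 0.26, FDR = 0.0158) outside these lists, named after its values were seen. None of the 13 tested genes of the cAMP and NR4A response (median -0.04) and none of 17 genes of calcium handling (median -0.02) passed, with Cited2 at -0.39, Dusp1 at -0.17, Atp2a2 at -0.16 and Cacnb3 at 0.03. Egfr itself had 215, 374, 430.0 and 449 FPM under HG + FFA and 217, 304, 396 and 346 FPM under AII + NA (log2FC 0.20, SE 0.10, FDR = 0.317), and none of 12 members of the EGF receptor family list passed (median -0.05), with Lrig1, a negative regulator of the receptor, at -0.14.

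Smooth muscle contraction was the list with the most calls. Of 24 members, 9 passed the FDR, all higher under AII + NA, 7 of them as DEG, and 22 of 24 had a log2FC below 0 (median -0.56). At an unadjusted p under 0.05 there were 15, all higher under AII + NA (8.72% of all genes). Acta2 (chr19:34217737-34232990, GRCm39), smooth muscle alpha-actin, had 786, 308, 618 and 210.3 FPM under HG + FFA and 1158, 673, 1784 and 1455 FPM under AII + NA. Only set 2 under AII + NA fell into the HG + FFA range, and the distance was widest in set 4 (log2FC -1.49, SE 0.35, FDR = 0.0379). Actg2 (-1.37), Itga8, an integrin of smooth muscle (-1.18), Cnn1, calponin (-1.15), Myl9, the regulatory light chain (-1.12), Lmod1 (-0.96) and Mylk, the kinase of that light chain (-0.86) were the other DEG. Tpm1 (-0.62) and Srf (-0.58) passed below the DEG size. Myh11 gave -0.11 (FDR = 0.821) and Myocd, the cardiac and smooth muscle coactivator of SRF, -0.66 (FDR = 0.67).

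The contraction calls depended on the sets and on the fit. With only both exposures in the fit 2 of 23 members passed, with FDR of 0.0584 for Acta2, 0.1 for Actg2, 0.077 for Itga8 and 0.0797 for Cnn1. Without the count filter 16 of 24 passed, in a fit where 1261 genes passed the edgeR FDR against 415 with the filter. With sets 1, 2, 3 and 4 left out, 6, 5, 2 and 1 members passed, at medians of -0.65, -0.65, -0.53 and -0.39. The median within a set was -0.33, -0.23, -0.45 and -0.89 in sets 1 to 4, below 0 in each and lowest in set 4. Acta2 itself had FDR of 0.0777, 0.122 and 0.0846 without sets 2, 3 and 4. Against Control, the list's median was 0.00 under HG + FFA and 0.49 under AII + NA. The cytoplasmic actins, picked here for their values, were also higher under AII + NA. Actb had 1307, 1174, 1198 and 1209.6 FPM under HG + FFA and 1826, 1876, 2281 and 3156 FPM under AII + NA, without overlap (log2FC -0.87, SE 0.19, FDR = 0.0252). Actg1 likewise did not overlap (-0.88, SE 0.18, FDR = 0.0183). The actins are close in sequence and reads with several alignments were counted, so the division of reads among them is uncertain.

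Because these genes moved together, the 250 bases upstream of the start of each gene's canonical GENCODE transcript were searched. The motif was the CArG box (CC, then 6 bases of A or T, then GG, on either strand). It occurred in 6 of the 78 DEG higher under AII + NA (7.69%), in 2 of the 65 higher under HG + FFA (3.08%) and in 199 of all 16842 promoters searched (1.18%). In the contraction list 3 of 24 promoters held it (Srf, Vcl and Tagln), and in the fatty acid oxidation list 0 of 31. Of those 3 only Srf passed the FDR, below the DEG size. None of the 7 contraction DEG, Acta2 included, had a CArG box in this window. The sites in the DEG promoters are shown with up to 10 bases on each side, read on the strand of the gene in GRCm39, with the CArG box in capitals. The first 6 belong to DEG higher under AII + NA, among them Actb, the calponin Cnn2, the small GTPase Rnd3 and the myomesin Myom1, and the last 2 to DEG higher under HG + FFA.
Cnn2, chr10:79824368-79824397, plus strand: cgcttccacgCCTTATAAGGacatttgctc
Rasa4, chr5:136112523-136112552, plus strand: cagcgtgcggCCATTAATGGatttgcagct
Rnd3, chr2:51039204-51039233, minus strand: ctcccaggctCCATAAAAGGggaggaggcg
Myom1, chr17:71326443-71326462, plus strand: gccttcctggCCATAAAAGG
Actb, chr5:142892523-142892552, minus strand: ccgaaagttgCCTTTTATGGctcgagtggc
Gm17501, chr3:145357639-145357668, plus strand: aacaatatttCCATATTTGGgtatagcagt
Stbd1, chr5:92750864-92750890, plus strand: cggccaagaaCCTTAAAAGGatggggc
Ckap2l, chr2:129139354-129139383, minus strand: cgtccttaacCCAAATTTGGctacaattag

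Counted to the start of the canonical transcript, the boxes of Cnn2, Rnd3 and Actb began 33, 34 and 33 bases before it. Those of Myom1 and Stbd1 began 10 and 17 bases before it, and those of Rasa4, Gm17501 and Ckap2l 233, 168 and 151 bases before it. For Gm17501, a long non-coding RNA, the whole GENCODE gene (chr3:145354797-145441458, plus strand) starts before its canonical transcript, so that its box lies inside the gene. Gm17501 overlaps Ccn1 (chr3:145352720-145355738, minus strand). It was counted with 18.3, 10.9, 15.6 and 5.21 FPM under HG + FFA and 34.2, 21.8, 26.6 and 27.4 FPM under AII + NA (log2FC -1.22, SE 0.31, FDR = 0.0477). The strand setting of the counting was not stated, so reads of the overlapping stretch cannot be assigned to either. A match of letters is a description of the promoter and no site of binding. Of the other motifs searched, the TEAD hexamer GGAATG was in 16.7% of promoters higher under AII + NA, 9.23% of those higher under HG + FFA and 11.75% of all. In the contraction list it was in 10 of 24 promoters (41.67%), among them those of the DEG Acta2, Lmod1 and Mylk. The CREB octamer TGACGTCA was in 3 of 78 promoters higher under AII + NA (3.85%), 0 of 65 higher under HG + FFA and 303 of all 16842 (1.80%). Direct repeats of AGGTCA, allowing 2 mismatches, were searched with a spacing of 1 base (a PPAR-type element) and of 4 bases (an LXR-type element). The first was in 5.13% of promoters higher under AII + NA, 1.54% of those higher under HG + FFA and 2.42% of all, and in 0 of 31 of the fatty acid oxidation list. The second was in 0, 6.15% (4 of 65) and 2.1% of the same 3 groups. Among those 4 promoters, the clustered zinc finger genes Zfp970 and Gm14403 held the same site at the same distance.

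The next list held the coactivator YAP, the TEAD transcription factors and their targets, a pathway that responds to cell tension. Of its 14 members 3 passed, all higher under AII + NA (median -0.24), and without sets 1, 2, 3 and 4 the count was 4, 2, 0 and 2. Ccn1, a matricellular integrin ligand, had 241, 230.1, 298 and 148 FPM under HG + FFA and 553, 519, 621 and 667 FPM under AII + NA, without overlap (log2FC -1.39, SE 0.27, FDR = 0.0157, and 0.06 without set 3). Ccn2, connective tissue growth factor, had 1668, 701, 575 and 312 FPM against 2586, 1371, 1131 and 1457 FPM (log2FC -1.19, SE 0.26, FDR = 0.0286, and 0.0714 and 0.0989 without sets 2 and 3). Amotl2, an angiomotin, was the other member past the FDR (-0.55, FDR = 0.0214, and 0.0803 and 0.111 without sets 3 and 4), and Ankrd1 at -1.34 did not pass (FDR = 0.0959).

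Of 22 matrix proteases and inhibitors 1 passed the FDR in each direction (median -0.04), and the member higher under HG + FFA was Mmp19, a matrix metalloprotease, at 0.26 (FDR = 0.0371, and over 0.05 without any single set). Ogn, osteoglycin, a small proteoglycan, had 279.6, 741, 379 and 903 FPM against 173, 330.1, 227 and 554 FPM and was higher under HG + FFA in each set (log2FC 0.83, SE 0.12, FDR = 0.00261). With Thbs2, thrombospondin 2 (0.46, FDR = 0.0188, and up to 0.127, without set 4), it made up the 2 members of the proteoglycan and matricellular list higher under HG + FFA, against Ccn1 and Ccn2 higher under AII + NA (27 members, median -0.01). Among 29 collagens and crosslinking enzymes 2 were higher under HG + FFA (median 0.05). They were Col14a1, a collagen of fibril surfaces (0.47, FDR = 0.00822) and P4ha1, a prolyl hydroxylase (0.34, FDR = 0.0339), of which 1 passed without set 1 and none without set 2, 3 or 4. Col14a1 ranged from 26.0 to 2424 FPM between animals under HG + FFA, lowest in set 3.

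TGF-beta and BMP signalling had 2 of 23 members past the FDR, both higher under AII + NA (median -0.08). Tgfb3, a TGF-beta ligand, gave -0.68 (FDR = 0.0417, and 0.0904, 0.163 and 0.225 without sets 1, 3 and 4) and Bmp6, a BMP ligand, -0.62 (FDR = 0.0095, and 0.0626 without set 3). Of 26 growth factors and receptors 1 passed, Pdgfd, a PDGF receptor ligand, higher under HG + FFA (0.50, FDR = 0.036, and 0.1, 0.0646 and 0.198 without sets 1, 2 and 3; list median -0.08). None of 14 imprinted genes passed (median -0.05), with Meg3 at -0.06 and Grb10 at 0.08.

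Immediate early genes, the first to respond to ERK and SRF signalling, were called on the AII + NA side only, with 4 of 25 members (median -0.18). Klf2, a transcription factor known from endothelial quiescence, had 15.5, 30.4, 9.82 and 18 FPM under HG + FFA and 23.1, 58.5, 21.6 and 30.9 FPM under AII + NA (log2FC -0.85, SE 0.12, FDR = 0.00261). Klf6 (-0.63, FDR = 0.026), Jun (-0.46, FDR = 0.0481) and Jund (-0.37, FDR = 0.04995) passed below the DEG size, and without set 2, 3 or 4 only 1 member of the list did. Npas4, a transcription factor switched on by calcium entry in neurons, had 0.294, 1.09, 1.05 and 0.152 FPM against 1.94, 3.59, 4.89 and 6.43 FPM, without overlap (log2FC -2.76, SE 0.58, FDR = 0.0235, and 0.0602 and 0.0647 without sets 1 and 4). Nfil3, a repressor of the circadian output list, was also higher under AII + NA without overlap (log2FC -1.02, FDR = 0.0417, and 0.137, 0.077 and 0.119 without sets 2, 3 and 4), as the 1 called member of 17 (median 0.17).

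The called proliferation genes were higher under HG + FFA, except in the list of D cyclins and CDK inhibitors. All 25 members of the mitosis list had a log2FC above 0 (median 0.45), 5 passed the FDR and 3 were DEG (Aurkb, Mki67 and Top2a), and with 1 set left out 1 member passed each time, at medians of 0.34 to 0.55. Mki67, the proliferation marker, had 12.1, 10.4, 1.72 and 4.69 FPM under HG + FFA and 6.86, 5.79, 1.11 and 3.05 FPM under AII + NA. It was higher in each set, but the animals differed more than the exposures (log2FC 0.75, SE 0.17, FDR = 0.0319, and 0.108, 0.127, 0.0531 and 0.0558 without sets 1 to 4). Cenpf, a kinetochore protein, gave 1.22 (FDR = 0.0208, and 0.0807 and 0.173 without sets 1 and 4), Aurkb, a mitotic kinase, 0.95 (FDR = 0.0477) and Kif11, a spindle motor, 0.79 (FDR = 0.04995), and neither Aurkb nor Kif11 passed without any single set. Of 26 DNA replication genes 20 were above 0 and none passed (median 0.12), with Rrm1 at 0.12 and E2f1 at -0.04. Among D cyclins and CDK inhibitors, Cdkn2b, the inhibitor p15, had 65.3, 52.0, 47.9 and 43.6 FPM under HG + FFA and 105, 124, 65.5 and 113 FPM under AII + NA (log2FC -0.94, SE 0.18, FDR = 0.0148, and 0.0642 without set 2). Its groups came close without overlapping, the highest HG + FFA library being set 1 and the lowest AII + NA library set 3. Ccnd1, cyclin D1, was also higher under AII + NA (-0.33, FDR = 0.04995, and over 0.05 without any single set), and these were the 2 calls of 12 (median -0.17).

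Inflammatory lists were decided by single sets. Of 25 cytokines, chemokines and adhesion molecules 22 had a log2FC below 0 with a median of -0.85, but without set 2 only 10 did and the median was 0.06. The 1 call was Ccl5, a chemokine for T cells, with 1.0004, 0.565, 0.269 and 1.28 FPM under HG + FFA and 3.23, 7.22, 0.649 and 1.76 FPM under AII + NA (log2FC -1.87, FDR = 0.0445, and over 0.05 without any single set). Of 24 interferon-stimulated genes 22 were below 0 with no call (median -0.34), and without set 1 there were 14 and a median of -0.06. Bst2 gave -0.30 and Ifit3 -0.18. Notch signalling gave no call among 12 members, 11 of them above 0 (median 0.40), with Notch2 at 0.28 and Notch3 at 0.20. In the ER stress list 1 member passed, Sdf2l1, a chaperone cofactor (-0.48, FDR = 0.0066, and 0.0674 without set 3; 21 members, median -0.07), and in the NRF2 and antioxidant list 1, Gpx1, glutathione peroxidase 1 (-0.57, FDR = 0.04995, and 0.0886, 0.233 and 0.24 without sets 2, 3 and 4; 21 members, median 0.04).

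Several of the largest differences lay in genes outside these pathways. Gabra3, a GABA-A receptor subunit on chromosome X, had 60.7, 36.7, 61.1 and 96.3 FPM under HG + FFA and 17.2, 17, 20.6 and 27.4 FPM under AII + NA. The groups lay well apart, and it had the smallest FDR of all genes (log2FC 1.58, SE 0.13, FDR = 3.19e-05). Gabre, another GABA-A subunit that was named after its values were seen, gave 1.12 (SE 0.18, FDR = 0.00587), and lies close by, at chrX:71299605-71318409 against chrX:71476275-71700723 for Gabra3 (GRCm39). The protocadherin Pcdh11x, a neuronal adhesion protein, had 8.62, 5.12, 4.28 and 7.25 FPM against 1.39, 1.64, 0.866 and 3.34 FPM (log2FC 1.88, SE 0.27, FDR = 0.00261), without overlap. Pcdh10, of the same family, did not overlap either, with 8.59, 4.56, 4.47 and 1.98 FPM against 1.94, 1.85, 0.959 and 0.682 FPM (1.83, SE 0.25, FDR = 0.0022). The zinc finger gene Zfp970 had 22.8, 15.2, 22.9 and 23.9 FPM against 4.77, 7.25, 5.10 and 7.36 FPM, again without overlap (1.82, SE 0.22, FDR = 0.00104). It lies in a cluster of similar zinc finger genes on chromosome 2 with Gm14403, another DEG (1.33), and how reads are divided between them is uncertain (chr2:177156498-177183583 and chr2:177189969-177204572, GRCm39).

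Prss35, a serine protease-like protein, was lower in set 3 than elsewhere under either exposure, with 11.6, 13.4, 1.78 and 11.2 FPM against 4.00, 4.51, 0.371 and 3.38 FPM (log2FC 1.70, SE 0.18, FDR = 0.000409). These 5 genes (Gabra3, Pcdh11x, Pcdh10, Zfp970 and Prss35) kept their FDR under 0.05 whichever set was left out. Art4, an ADP-ribosyltransferase of the Dombrock blood group, gave 1.42 (FDR = 0.0096, and 0.0617 and 0.0522 without sets 2 and 4), and the long non-coding RNA AI838599 gave 1.53 (FDR = 0.0096, and 0.0936 without set 4). On the AII + NA side, Lgr5, the receptor for R-spondins, gave -1.94 (FDR = 0.0369, and 0.0602, 0.107 and 0.0972 without sets 2, 3 and 4) and Rnd1, a small GTPase, -1.39 (FDR = 0.0319, and 0.133, 0.0524 and 0.127 without sets 2, 3 and 4). Ccdc42 rested on set 4, where it had 1.71 FPM under HG + FFA and 9.52 FPM under AII + NA (-1.43, FDR = 0.0394, and 0.328 without set 4). Fmo2, a flavin monooxygenase named after its values were seen, varied widely between animals and was higher under HG + FFA in each set, with 102, 454, 44.4 and 677 FPM against 46.8, 161, 31.2 and 249 FPM (1.14, SE 0.12, FDR = 0.000443).

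The Control libraries of the same sets showed on which side each difference arose. Each DEG was placed by the share of its HG + FFA minus AII + NA difference that lay between HG + FFA and Control, as mostly HG + FFA where that share was at least 66.7% and mostly AII + NA where it was at most 33.3%. Of the 65 DEG higher under HG + FFA, 37 differed mostly through HG + FFA, 25 through both and 3 mostly through AII + NA (Agtr2, Fmo4 and Ogn). In the 37, the median log2FC against Control was 0.93 under HG + FFA and -0.11 under AII + NA. Of the 78 DEG higher under AII + NA, 49 differed mostly through AII + NA (medians 0.93 against Control, and -0.12 for HG + FFA), 15 through both and 14 mostly through HG + FFA. These comparisons share their Control libraries, and the shares are descriptions. The mean of Control lay between both exposures in 110 of the 143 DEG. Tested against Control, 35 DEG passed the FDR under HG + FFA and 7 under AII + NA, while 101 passed under neither.

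Pdk4 and Angptl4 had log2FC of 0.10 and 0.06 against Control under AII + NA, while under HG + FFA Pdk4 was raised (1.52, FDR = 0.00667) and Angptl4 had 1.32 without passing (FDR = 0.0574). Ramp1, Agtr1b and Rgs3 showed the converse, with log2FC of 2.84, 1.44 and 0.82 under AII + NA against Control (FDR = 0.0282, 0.0229 and 0.0229) and -0.47, 0.04 and 0.03 under HG + FFA. Apod, Mylip and Klf2 were among the 14 DEG higher under AII + NA that differed mostly through HG + FFA, with log2FC against Control of -1.67, -0.89 and -0.87 (FDR = 9.88e-05, 0.00649 and 0.00268), and the others were Ccl5, Rerg, Aldh1a3, Klf5, Lgals3, Lnx1, Ifi27l2a, Gjb5, Pi16, Aif1l and Hsd11b1. Aldh1a3, which makes retinoic acid, fell by 1.29 under HG + FFA against Control (FDR = 0.00149). When all agents were combined, ALL lay nearer to HG + FFA for 62 of the 65 DEG higher under HG + FFA and for 27 of the 78 higher under AII + NA. In the classes this was 37 of 37 for those raised mostly by HG + FFA, 14 of 14 for those lowered mostly by HG + FFA, and 3 of 49 for those raised mostly by AII + NA.

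**Figure D4:**
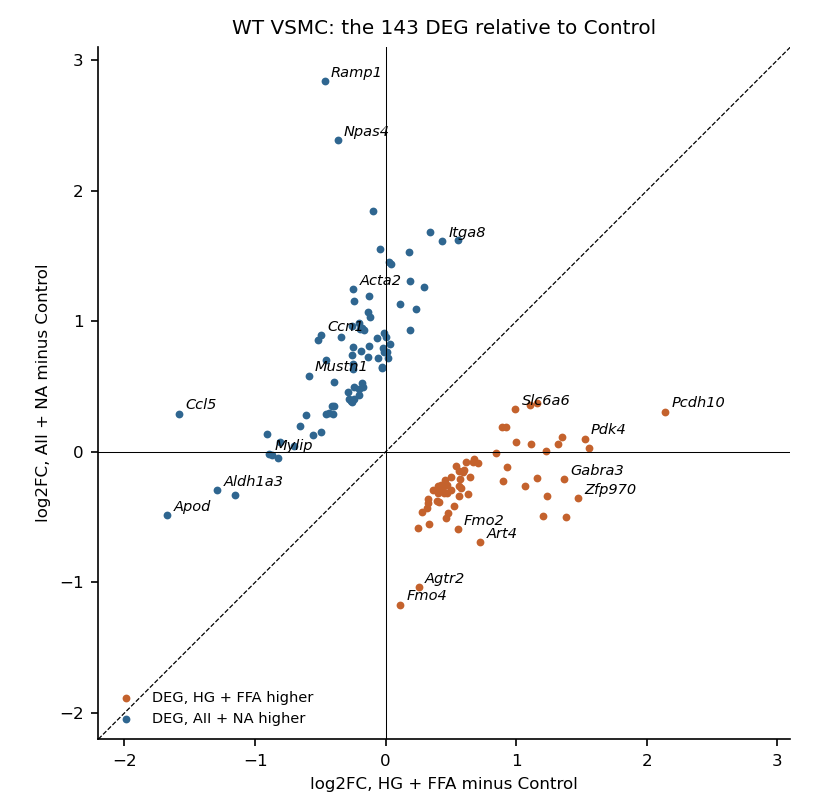
The 143 DEG by their log2FC against Control under HG + FFA (x axis) and under AII + NA (y axis) in WT VSMC, which share the Control libraries. Most DEG higher under HG + FFA (orange) stretch along the x axis, most DEG higher under AII + NA (blue) along the y axis, and Apod, Mylip and Klf2 lie farther to the left, at -1.67, -0.89 and -0.87 on the x axis.

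KO VSMC and EC received the same exposures and were compared over their own libraries. In KO VSMC 59 of 17538 tested genes (0.336%) were DEG, 45 higher under HG + FFA and 14 higher under AII + NA, a count that became 76, 9, 2 and 50 without sets 5, 6, 7 and 8. In EC there were 77 of 17148 (0.449%), 42 and 35. Sets 17 and 18 of EC share an animal, and with the animal as the block there were 37, 22 and 15, all among the 77. Of the 143 WT VSMC DEG, 134 had the same direction in KO VSMC, 59 of 65 and 75 of 78, with an unadjusted p below 0.05 for 43 and 47 (5.05% and 4.17% of all genes), and 20 were also DEG there (13.99% of the WT VSMC DEG and 33.9% of the KO VSMC DEG), 17 of them higher under HG + FFA. In EC, 54 of 62 tested DEG higher under HG + FFA and 55 of 75 tested DEG higher under AII + NA had the same direction, with an unadjusted p below 0.05 for 29 and 16 (5.52% and 6.75% of all genes), and 16 were shared DEG (11.2% and 20.8%), 15 of them higher under HG + FFA. The share of all genes alike in direction between the cell groups is not given here, so the counts of direction have no such base beside them. The WT VSMC genes were selected for their size in WT VSMC, so their sizes there are no fair base for a comparison with other cells. The median change in the WT direction was 0.79 for DEG higher under HG + FFA and 0.92 for those higher under AII + NA, against 0.60 and 0.38 among KO cells and 0.37 and 0.16 among EC.

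The 11 DEG common to the 3 cell groups were picked after seeing that overlap, and 10 are named. They were Pdk4, Angptl4, Ech1, Lipe, Stbd1, Dhrs3 (a retinal reductase), Gabre, Gria4 (an AMPA receptor subunit), and Lgals4, all higher under HG + FFA, and Mylip, higher under AII + NA. The log2FC of Pdk4 in WT VSMC, KO VSMC and EC, in that order, was 1.42, 1.58 and 1.20. Angptl4 had 1.26, 2.59 and 3.38. Gria4, with 94.7, 94.7, 72.8 and 85.5 FPM against 37.4, 47.6, 35.2 and 48.9 FPM in WT VSMC, had 1.05, 1.4 and 1.54. The fatty acid oxidation list had 7 members past the FDR and higher under HG + FFA among WT cells. Among KO cells it had 10 (median 0.30; 0.376% of all tested genes passed in that direction) and among EC 16 (median 0.26; 0.951%), and none of the 3 groups had a member called the other way.

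In the other cells the contraction list gave no calls. None of the 24 contraction genes passed in KO VSMC (median -0.16), where only 0.16% of all genes passed the FDR on the AII + NA side. At an unadjusted p under 0.05 there were 5 of 24, all higher under AII + NA, against 4.17% of all KO VSMC genes. In EC none of 23 passed (median 0.03), with 2.06% of all EC genes past the FDR. Acta2, at -1.49 with WT cells, gave -0.35 with KO cells (FDR = 0.432) and 0.19 with EC (FDR = 0.688). Mitosis genes had a median of 0.55 in KO VSMC, with 15 of 25 at an unadjusted p under 0.05 and none past the FDR, and of 0.07 in EC. All 15 were higher under HG + FFA, as were 5.05% of all KO VSMC genes at that p.

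Whether WT and KO VSMC differed was tested gene by gene as the difference between both contrasts. None of 18339 genes passed in edgeR (0%; smallest FDR 0.068, 1597 genes or 8.71% at an unadjusted p under 0.05), and DESeq2 called 33. The call of a gene in WT VSMC and not in KO VSMC is therefore no difference between them by the edgeR test. At an unadjusted edgeR p under 0.05 were 9 of 24 contraction genes, 11 of 25 of the cytokine list and 0 of 25 mitosis genes. No list was tested as a set. For Acta2 the difference was -1.15 (p = 0.0102 before adjustment across all genes by edgeR, FDR = 0.485), for Rgs3 -0.68 (FDR = 0.295), for Ogn 0.94 (FDR = 0.192, and 0.0139 in DESeq2) and for Angptl4 -1.33 (FDR = 0.511). Pdk4 gave -0.16 (SE 0.33, FDR = 0.891).

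**Figure D5:**
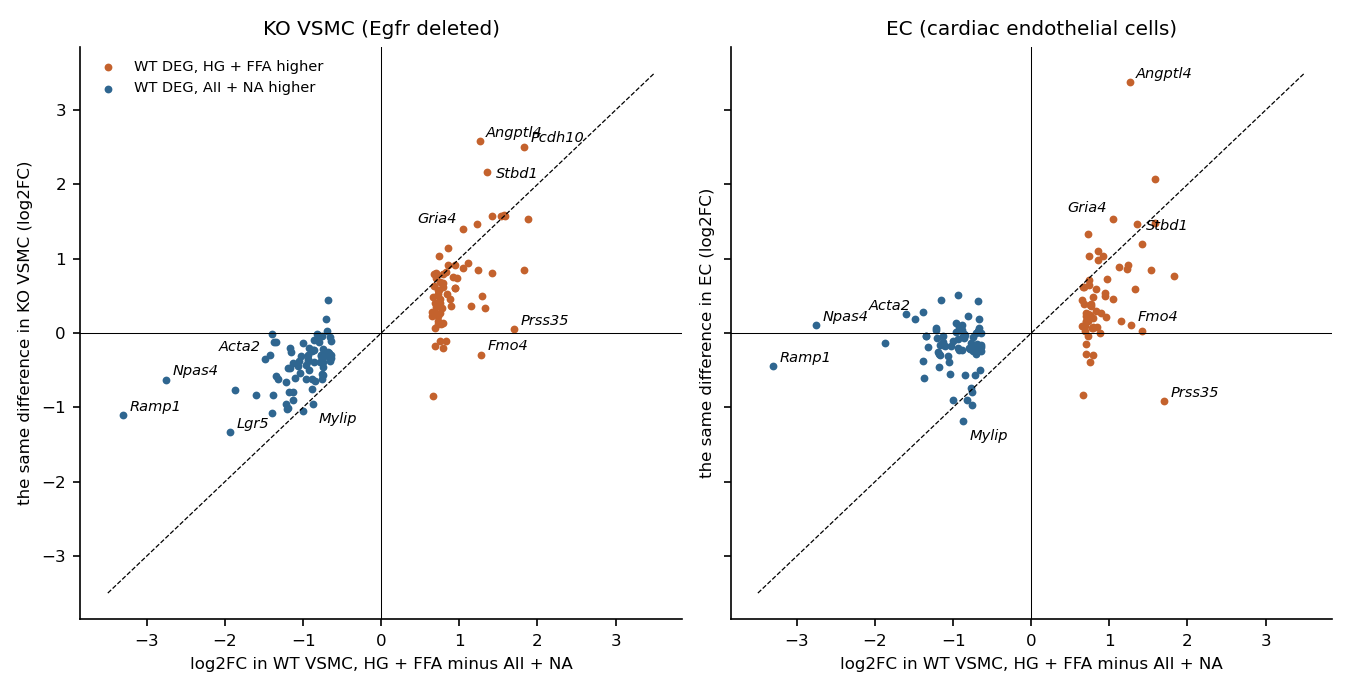
Log2FC (HG + FFA minus AII + NA) of the 143 WT VSMC DEG on the x axis against the log2FC in KO VSMC (left) and EC (right) on the y axis. In KO VSMC 134 points share the sign with WT VSMC, while in EC the DEG higher under AII + NA lie close to 0 with a median of 0.16 in the WT direction.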

How the data were processed

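RNA of primary mouse cells was sequenced from poly(A)-selected, paired-end libraries. The authors aligned the reads to mm39 with HISAT2 (version 2.1.0, per the labels' processing notes) and counted them per gene with featureCounts on Ensembl exons, including reads with several alignments; the strand setting is not given in the sources used here. The deposited values were raw counts per gene, not normalised. Of 56953 gene identifiers, 56310 were matched to GENCODE for symbols and coordinates (GRCm39, the same build). The 37 mitochondrially encoded genes were listed with 0 counts.

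Counts were filtered by expression, scaled by TMM and fitted by edgeR's quasi-likelihood test (edgeR 4.0.16, R 4.3.3) on all 16 WT VSMC libraries with condition and set as terms, and by DESeq2 (version 1.42.0) on the same design. Adjusted p-values are Benjamini-Hochberg FDR over all tested genes. FPM are edgeR's cpm values on TMM-scaled library sizes; they are not per length, so levels were not compared between genes. Per-set log2 ratios used a pseudocount of 0.1 FPM. A DEG needed FDR under 0.05 in both tools, a log2FC not under 0.64 in size, 3 FPM or more on average in either exposure and a protein-coding or long non-coding gene. KO VSMC and EC were fitted alike, each with its own sets; the KO ALL library of set 5, the EC Control library of set 10 and the EC AII + NA library of set 15 are not analysed here. The genotype difference was fitted over WT and KO VSMC together. The scripts were tested on simulated counts.

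Samples of a set came from the same animal by the labels, and their deviations from the group means correlated by 0.85, 0.68, 0.86 and 0.80 in sets 1 to 4 (13789 genes of at least 1 FPM), against a mean of -0.25 between sets. In EC, sets 17 and 18 share an animal. None of the 12 pairs of WT VSMC libraries of the same exposure agreed within counting noise. Genes were named by rule: the 10 DEG with the largest log2FC in each direction among those alike in all 4 sets, the up to 4 largest called members of each of 29 lists (617 genes, of which 591 were tested; where none was called, the 2 most abundant), and the angiotensin and adrenergic receptors with Egfr. Other genes printed, including further members of a list, were chosen after their values were seen, and a few genes that the rule names are not reported here. The libraries, lists and rules were chosen with earlier results of these data known. Alternatives were another scaling, no filter, DESeq2 alone, other log2FC thresholds, no block, only the 2 conditions, another block in EC, and each set left out. Promoters were the 250 bases upstream of the start of the canonical GENCODE transcript (GRCm39), and figures were drawn with Python 3.11.15 and matplotlib 3.10.9.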

Additional observations from a re-analysis of the deposited data

Results flagged for a closer look

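The 4 paired log2 ratios (HG + FFA minus AII + NA, FPM with a pseudocount of 0.1) of the 84 named genes were searched for a set whose distance from the nearest other set took up more of the whole range than Dixon's critical value for 4 samples. Chance gives about 1 such gene in 20, and 4 of 84 were found. Stbd1, the glycogen-binding protein, had 2.70 in set 1 against 0.75 to 1.05 in the others. Ccn1, the matricellular integrin ligand, had -2.17 in set 4 against -1.20 to -1.06. Slc2a4, the insulin-regulated glucose transporter, had -0.20 in set 2 against -2.12 to -1.86, at levels under 2 FPM. Ogn, osteoglycin, had 1.17 in set 2 against 0.69 to 0.74. All 4 genes had the same sign in every set.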

How the results depend on the processing

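The 143 DEG became 375 without a log2FC threshold and 52 at a log2FC of at least 1. Without the replicate block (set) the counts were 0 in WT VSMC (0 and 0 by direction), 0 in KO VSMC and 2 in EC, and 62 of 62 called named genes lost their call. With only the 2 conditions in the fit WT VSMC had 84 DEG (35 higher under AII + NA), KO VSMC 112, and 27 named genes lost their call. Leaving out 1 set gave 63 to 134 DEG in WT VSMC (34 to 65 higher under HG + FFA, 29 to 69 higher under AII + NA) and 2 to 76 in KO VSMC. KO VSMC had 111 DEG by DESeq2 alone, EC had 37 with the animal as the block, and the genotype difference had 33 genes by DESeq2. Of the 62 called named genes 14 passed in all 4 fits with 1 set left out, 7 in 3 of them and 41 in fewer. The scaling, the count filter and DESeq2 alone each cost 1 named call (Kif11, Mmp19 and Cd36), while the fit without the filter, where 1261 genes passed the edgeR FDR against 415, added 6 (Srebf2, Insig1, Cited2, Bst2, Notch2 and Adra1d) and DESeq2 alone added 2 (Insig1 and Cited2). The log2FC of uncalled genes changed sign in few cases: Adra2a to 0.0016 without the block, and with 1 set left out Meg3 (-0.13 to 0.000203), Ifit3 (-0.297 to 0.0418), Adrb3 (-0.062 to 0.36), Cacnb3 (-0.00058 to 0.057), Adra2a (-0.084 to 0.0096) and Adra1b (-0.10 to 0.12). The causes were not tested. Genes under about 1 FPM rest on few reads.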
